A study of Homo sapiens with 39 samples.

Results

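Claudins and tight junction genes were followed in HCT116 cells, a human colorectal cancer line, that produced 1 of 12 isoforms of the nuclear receptor HNF4A. The 10 genes were taken by name: the claudins CLDN1, CLDN2, CLDN3, CLDN4, CLDN7, CLDN12 and CLDN15, occludin (OCLN), the scaffold protein ZO-1 (TJP1) and cingulin (CGN). The rule uses no measured value, but the genes were chosen with earlier results of these data known. These genes were 10 of 45435 gene rows measured by poly(A) RNA-seq. The 39 libraries formed 13 groups of 3. The first group, titled Empty Control and called parental here, was the HCT116 Flp-In host without an HNF4A construct. The remaining 12 were each a stable Flp-In T-REx line in which 1 human isoform, with GFP joined to its C-terminal end, had been inserted a single time. All 13 groups were exposed to doxycycline at 2.5 µg/ml for 48 h, without selection antibiotics during that time. Routine media differed before that: zeocin was used beside blasticidin S for the parental cells, and hygromycin B beside blasticidin S for the lines. Each isoform was represented by 1 line and no group made GFP alone, so the isoform, the fusion, the earlier antibiotic and the derivation of a line cannot be told apart. The experiments were made in triplicate, but the labels do not say that the 3 libraries of a group came from separate cultures, so the p-values measure the spread between these libraries, which may be technical.

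Tight junctions seal the space between neighbouring epithelial cells near their apical side. Claudins are membrane proteins with several spans whose outer loops decide which ions and solutes pass: some, such as CLDN2 and CLDN15, form pores for cations and water, and others, such as CLDN1, CLDN3 and CLDN4, tighten the barrier. Occludin spans the membrane beside them, and ZO-1 and cingulin sit on the inner face, where they tie the strands to actin and myosin. HNF4A is a transcription factor of gut and liver epithelium that binds DNA as a dimer, at repeats of a hexamer close to AGGTCA.

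The stretches of 250 bases upstream of annotated starts are shown for CLDN2 and CLDN7, which rose in the most lines together with CLDN4, and for CLDN3, which rose in 2 lines and fell in 4. They are RefSeq sequence (GRCh38.p14), read 5′ to 3′ on the gene's strand, and capitals mark AGGTCA or its reverse complement TGACCT (in CLDN15, TGGACTTT, the reverse complement of AAAGTCCA).
CLDN2 first start, chrX:106899914-106900163, plus strand: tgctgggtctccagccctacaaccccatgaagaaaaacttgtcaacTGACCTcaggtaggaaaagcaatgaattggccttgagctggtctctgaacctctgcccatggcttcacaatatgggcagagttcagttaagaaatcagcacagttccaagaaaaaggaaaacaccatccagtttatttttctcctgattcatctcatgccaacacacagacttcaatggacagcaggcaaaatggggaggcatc
CLDN2 second start, chrX:106918110-106918359, plus strand: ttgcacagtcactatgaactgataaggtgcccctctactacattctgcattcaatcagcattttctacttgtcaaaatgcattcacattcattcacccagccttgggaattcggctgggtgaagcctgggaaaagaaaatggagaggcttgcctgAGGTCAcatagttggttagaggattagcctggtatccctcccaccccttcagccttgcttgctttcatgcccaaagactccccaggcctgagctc
CLDN7, chr17:7263214-7263463, minus strand: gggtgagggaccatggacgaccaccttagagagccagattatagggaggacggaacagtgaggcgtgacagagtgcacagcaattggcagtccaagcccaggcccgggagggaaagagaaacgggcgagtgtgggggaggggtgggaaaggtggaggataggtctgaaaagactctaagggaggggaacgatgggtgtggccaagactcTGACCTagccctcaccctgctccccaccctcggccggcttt
CLDN3, chr7:73770271-73770520, minus strand: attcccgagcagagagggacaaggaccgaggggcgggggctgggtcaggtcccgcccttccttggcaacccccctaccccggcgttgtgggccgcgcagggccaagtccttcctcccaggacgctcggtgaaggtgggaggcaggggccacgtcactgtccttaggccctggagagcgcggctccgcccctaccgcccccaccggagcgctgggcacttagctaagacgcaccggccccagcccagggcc
Only the bases around a match are shown for CLDN4 and CLDN15, whose windows overlap exons.
CLDN4: tgtctcccgggTGACCTcagcatgggct
CLDN15: gggggagggggTGGACTTTtggcccgtttc

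All 10 members had at least 1 such window in the RefSeq table, 16 in all. AGGTCA, searched on both strands, was present in 7 of the 16 windows, in CGN, CLDN2, CLDN4, CLDN7 and TJP1, and in 12.1% of all 35116 windows of the same length. The match lay 204 and 95 bases upstream of the start in the CLDN2 windows and 41 bases upstream in the CLDN7 window shown. The longer motifs CAAAGTCCA and CAAAGGTCA, the latter of which contains AGGTCA, were in 0 of the 16, against 0.325% and 0.339% of all windows. AAAGTCCA, which CAAAGTCCA contains, was found in CLDN15 alone, and in 0.98% of all windows. The CLDN3 window held none of the 4 motifs. Such a match describes the letters of the window and is not a measured binding site.

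HNF4A mRNA showed that each line carried extra HNF4A. It was summed over isoforms, so it does not check which isoform a label names. Its parental mean was 31.5 TPM ± 0.589 (SD, n = 3), and it had means from 614 TPM (isoform 2) to 1071 TPM (isoform 6) in the lines, and it passed the test in all 12. Replicate 1 of isoform 3 had less HNF4A than the others of its line. The CLDN3, CLDN4 and CLDN7 changes of that line against the parental cells are therefore also given without that library. Depth per library is unknown from TPM (a transcript level scaled by length and to a fixed library sum), and no counting interval could be given. Summed TPM of the 6 colorectal epithelium markers EPCAM, CDH1, KRT8, KRT18, KRT19 and CDX2 ranged from 2489 to 5590 over the libraries, from 3059 to 3186 in the parental cells, 5089 to 5590 in isoform 1 and 2489 to 2776 in isoform 6. These 6 markers did not move together. In isoform 1 the log2 fold change was -0.66 for CDX2, 0.13 for EPCAM, 0.89 for CDH1, 0.85 for KRT8, 0.96 for KRT18 and 0.86 for KRT19. Summed markers reached at most 16.9 TPM for fibroblasts (6 genes), 6.93 TPM for endothelium (4 genes) and 1.04 TPM for liver (3 genes). The endothelial sum was 2.59 to 3.17 TPM in the parental libraries, 5.24 to 6.92 TPM in isoform 1 and 1.69 to 2.24 TPM in isoform 6, with PECAM1 as its 1 gene at a mean of 1 TPM or more and CDH5 below 0.1 TPM. PECAM1 rose in 5 lines (isoforms 1, 2, 7, 8 and 11) and fell in isoforms 5 and 6. The lines in which CLDN4 and CLDN7 rose include those 5, and the part of either marker list in their change was not tested. The blood cell list reached 43.9 TPM, with HBB as its 1 gene at a mean of 1 TPM or more and PTPRC and CD3E below 0.1 TPM.

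Against the parental cells, CLDN7 rose in 8, CLDN4 in 7 and CLDN2 in 6 lines, none of them isoforms 4 to 6 (with median-of-ratios scaling, CLDN4 also rose in isoform 4, by 0.21). CLDN4 fell in isoform 6. With that scaling, CLDN4 and CLDN3 also fell in isoform 5 (log2 fold changes of -0.18 and -0.23, limma adjusted p = 0.03 and 0.0422). CLDN15 fell in 5 lines (in 1, isoform 2, with that scaling). CLDN1, tested in a fit without the filter, fell in 7 lines and rose in isoform 10. TJP1 rose in 2 lines, and OCLN and CLDN12 passed the test in none. CLDN3 and CGN rose in some lines and fell in others. On the log2(TPM + 1) scale, the largest fold changes in either direction were 1.06 for CLDN2 in isoform 8 and -0.66 for CLDN3 in isoform 2. The added 1 shrinks the changes of scarce genes. In isoform 2, mean TPM was 0.18 times the parental mean for CLDN1 and 0.62 times for CLDN3. Here "rose" and "fell" mean a limma adjusted p under 0.05, and "called" adds a log2 fold change of at least 1, a 2-fold change. Of the 10 members, 9 passed the filter of a mean of 1 TPM over all libraries. CLDN2 passed it only through the lines in which it was high, and CLDN1 did not pass. Of the 108 tests of these 9 members in 12 lines, 26 found a rise and 11 a fall, 71 did not pass, and 1 was called. Of all tested genes, between 5.94% (isoform 6) and 19.8% (isoform 1) rose in a line. Between 4.13% (isoform 6) and 38.7% (isoform 1) fell, and between 0.247% (isoform 6) and 4.52% (isoform 1) were called. Since CLDN2 reached the filter through the lines where it was high, the counts are also given without it: 20 rises and 11 falls in 96 tests of 8 members. All 12 comparisons share the same 3 parental libraries.

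**Figure D1:**
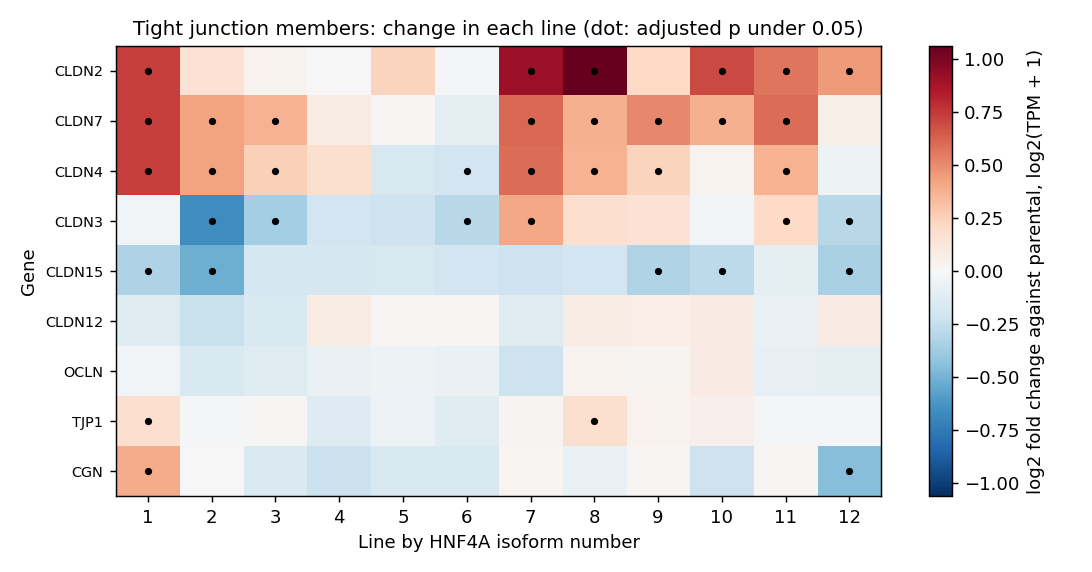
Log2 fold change against the parental cells on the log2(TPM + 1) scale (colour, red higher and blue lower) for the 9 tested members (rows) in the 12 lines (columns, by isoform number). Dots mark an adjusted p under 0.05: the 37 dots include 6 for CLDN2, 8 for CLDN7 and none for OCLN or CLDN12, and the columns of isoforms 4 and 5 hold none.

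CLDN7, a claudin of gut and kidney epithelium that also lies along the lateral membrane, had the highest mean TPM of the members and rose in 8 of 12 lines. The gene is on chromosome 17 from 7259903 to 7263983, minus strand (GRCh38). The parental libraries had 141, 142 and 140.4 TPM. Those of isoforms 1 to 3 had 229.7, 229.8 and 243 for isoform 1, 181, 199 and 192 for isoform 2 and 171, 189.8 and 188 for isoform 3 (TPM). All 9 lay above every parental library, and isoform 1 was highest of all 13 groups, at 234 TPM ± 7.52 (SD, n = 3), 1.66 times the parental mean. In the lines of isoforms 4 to 6 the values were 142, 149 and 156 for isoform 4, 133, 144 and 149.5 for isoform 5 and 125, 135 and 136 for isoform 6 (TPM). Isoform 4 lay just above the parental range and isoform 6 just below it, and neither passed the test: the log2 fold changes were 0.08 ± 0.05 (SE), adjusted p = 0.334, and -0.10 ± 0.05 (SE), adjusted p = 0.294. The remaining lines had 211, 222 and 214 for isoform 7, 184, 176 and 191 for isoform 8 and 186, 203 and 216 for isoform 9, then 176, 184 and 189 for isoform 10, 200.3, 213 and 227 for isoform 11 and 139.7, 150.1 and 150.4 for isoform 12 (TPM). Every line of isoforms 7 to 11 lay above the parental range, while isoform 12 overlapped it. CLDN7 rose by 0.73 ± 0.05 (SE), adjusted p = 1.39e-12 in isoform 1, by 0.61 ± 0.05 (SE), adjusted p = 1.84e-10 in isoform 7 and by 0.59 ± 0.05 (SE), adjusted p = 4.39e-10 in isoform 11. The other 5 rises were between 0.37 in isoform 3 and 0.51 in isoform 9. Without replicate 1 of isoform 3, the rise in that line was 0.42 (adjusted p = 1.88e-06).

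CLDN4, a claudin that lowers cation passage, rose in 7 lines and fell in 1. It is on chromosome 7 from 73799542 to 73832693, plus strand. Parental libraries had 99.2, 106 and 115 TPM. The highest lines were isoform 1, with 185, 170.3 and 176 TPM, and isoform 7, with 165, 158 and 160.4 TPM. Isoform 2 had 136, 151 and 143, isoform 3 122, 129 and 129.6, isoform 8 141, 132 and 141 and isoform 11 135, 137 and 143 TPM. These 6 lines and isoform 4, with 121, 119 and 119 TPM, lay wholly above the parental range. The lowest were isoform 5, with 93.0, 95.5 and 95.2 TPM, the 1 line wholly below that range, and isoform 6, with 88.2, 89.0 and 100.5 TPM. Isoforms 9, 10 and 12 overlapped it, with 113, 123 and 146, 107, 105 and 117, and 94.7, 104 and 109 TPM. CLDN4 rose by 0.73 ± 0.07 (SE), adjusted p = 1.01e-10 in isoform 1, and by 0.59 ± 0.07 (SE), adjusted p = 2e-08 in isoform 7. In isoform 6 it fell by 0.20 ± 0.07 (SE), adjusted p = 0.0481. That fall did not pass without parental replicate 2 or 3 or isoform 6 replicate 1 or 2, with adjusted p-values of 0.111, 0.252, 0.175 and 0.184. The rise in isoform 3 (0.25) did not pass without parental replicate 1 (0.20, adjusted p = 0.0511). The rise in isoform 9 (0.24) did not pass without that library (0.19, adjusted p = 0.064) or without isoform 9 replicate 3, the highest of its line (0.14, adjusted p = 0.11). Without replicate 1 of isoform 3, that line's rise was 0.28 (adjusted p = 0.00579).

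CLDN3, a sealing claudin whose gene lies beside CLDN4 on chromosome 7 (73768997 to 73770270, minus strand), rose in 2 lines and fell in 4. In isoforms 2 and 3 CLDN3 fell where CLDN4 rose, in isoforms 7 and 11 both rose, and in isoform 6 both fell. The parental libraries read 37.6, 37.0 and 41.4 TPM, and those of isoform 1, where CLDN4 was highest, 41.9, 36.0 and 35.6 TPM. In isoform 2 it was lowest, with 23.3, 25.4 and 23.6 TPM, and in isoform 3 it had 32.2, 30.0 and 27.5 TPM. Isoform 7 had 53.7, 50.1 and 51.6 TPM, the highest of all groups, and isoform 11 had 44.4, 43.5 and 46.5 TPM. These 2 lines lay wholly above the parental range, and isoforms 2, 3, 5, 6 and 12 wholly below it. Isoforms 5, 6 and 12 had 34.1, 32.5 and 32.7, 31.2, 30.6 and 32.4, and 31.4, 29.8 and 33.4 TPM. The other lines overlapped the parental libraries, with 37.6, 33.1 and 30.3 TPM for isoform 4, 44.0, 41.1 and 47.0 for isoform 8, 40.4, 41.4 and 47.5 for isoform 9 and 37.4, 34.7 and 42.0 for isoform 10. CLDN3 rose by 0.41 ± 0.08 (SE), adjusted p = 5.67e-05 in isoform 7, and fell by 0.66 ± 0.08 (SE), adjusted p = 1.48e-08, in isoform 2. It fell by 0.36 in isoform 3 (adjusted p = 0.000654), and by 0.42 without replicate 1 of that line (adjusted p = 0.000325). Falls of 0.29 in isoforms 6 and 12 did not pass without parental replicate 3 (adjusted p = 0.088 and 0.0707) or without replicate 2 of the line (adjusted p = 0.0577 and 0.0583). The rise of 0.21 in isoform 11 was lost without parental replicate 1 or 2 (adjusted p = 0.0882 and 0.115) and without isoform 11 replicate 1 or 3 (adjusted p = 0.0524 and 0.113).

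**Figure D2:**
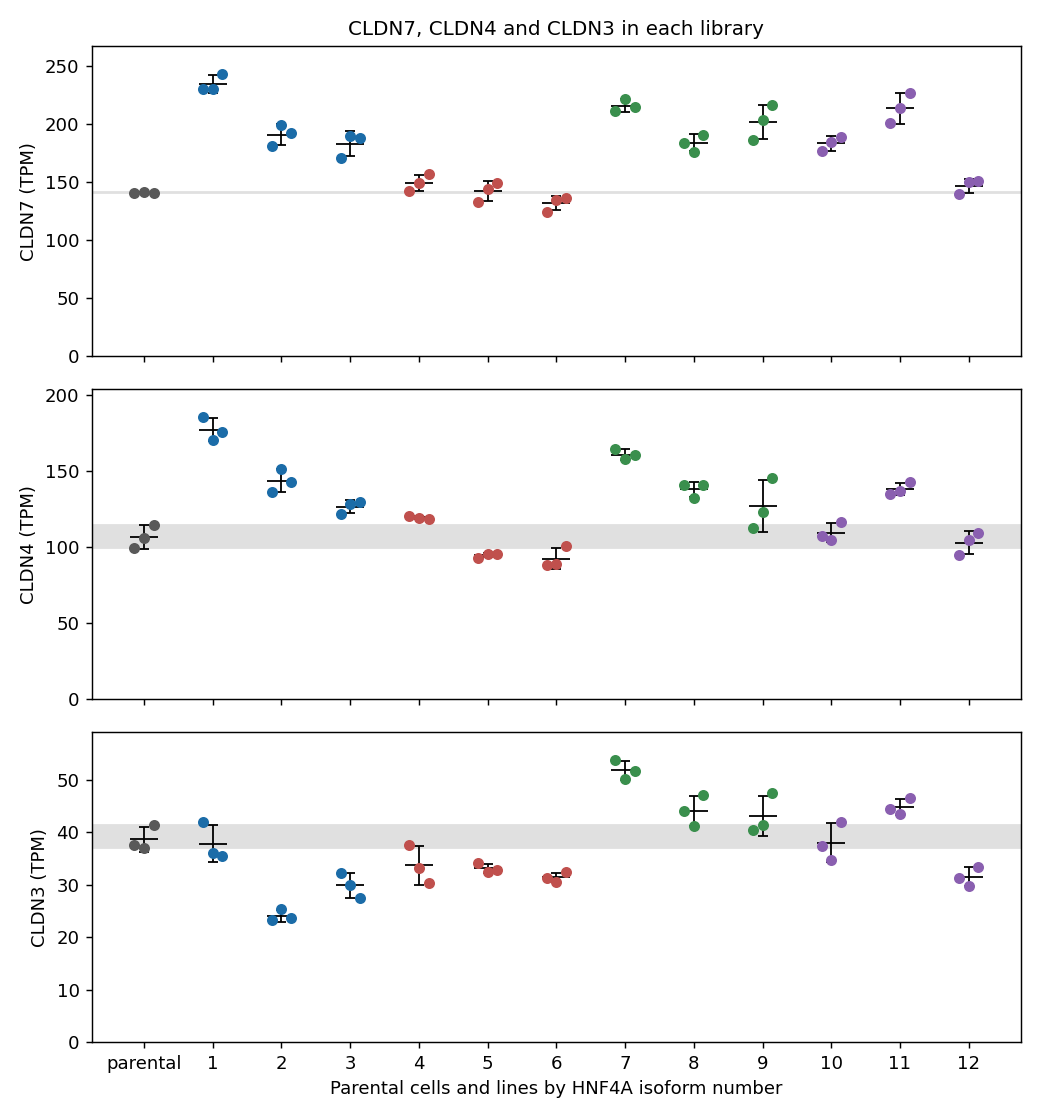
TPM of CLDN7, CLDN4 and CLDN3 (vertical axes, from 0) in each of 39 libraries, for the parental cells and the lines by isoform number; colours mark isoforms 1-3 (blue), 4-6 (red), 7-9 (green) and 10-12 (purple), the grey band the range of the parental libraries, and bars the mean ± SD of 3. CLDN7 and CLDN4 are highest in isoform 1, and CLDN3 is lowest in isoform 2 and highest in isoform 7.

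CLDN2, a pore for cations and water that is typical of leaky epithelium, was low in every group and rose in 6 lines. It lies on chromosome X from 106900164 to 106930861, plus strand. Parental libraries had 0.669, 0.581 and 0.643 TPM. The highest values were 2.69, 2.14 and 2.36 TPM in isoform 8 and 2.38, 1.9 and 1.93 TPM in isoform 7, whose means were 3.8 and 3.28 times the parental mean. Isoforms 1, 10 and 11 had 1.69, 1.73 and 1.67, 1.83, 1.63 and 1.5, and 1.54, 1.43 and 1.31 TPM, and isoform 12 had 1.1, 0.927 and 1.71 TPM. Those 6 lines lay wholly above the parental range, as did isoform 5, with 0.993, 0.972 and 0.809 TPM, and isoform 9, with 0.686, 0.804 and 1.2 TPM. Isoforms 2, 3, 4 and 6 overlapped it, with 0.851, 1.02 and 0.598, 0.64, 0.662 and 0.711, 0.727, 0.565 and 0.618, and 0.699, 0.676 and 0.463 TPM. CLDN2 was called in isoform 8, at 1.06 ± 0.11 (SE), adjusted p = 5.32e-09, and this was the 1 member called in any line. In the fit without the filter, which does not select CLDN2 by its level, the 6 rises also passed, with an adjusted p of 2.17e-08 in isoform 8 and 0.0094 in isoform 12. Without isoform 8 replicate 1, the highest of its line, the value was 0.99 (adjusted p = 2.28e-07), just under the limit of 1. It rose by 0.91 ± 0.11 (SE), adjusted p = 4.89e-08 in isoform 7, 0.73 ± 0.11 (SE), adjusted p = 9.76e-07 in isoform 1, and 0.70 ± 0.11 (SE), adjusted p = 5.87e-06 in isoform 10. Smaller rises were 0.57 in isoform 11 and 0.45 in isoform 12, and the last did not pass without isoform 12 replicate 3 (0.30, adjusted p = 0.0687). Nor did the isoform 12 rise pass in a limma fit of only the parental libraries and those of the line (0.45, adjusted p = 0.0924). At such low TPM the added 1 shrinks a fold change: with 0.1 added, the values were 1.77 ± 0.20 (SE) for isoform 8, 1.56 for isoform 7, 1.30 for isoform 1, 1.26 for isoform 10 and 1.06 for isoform 11.

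CLDN15, the other pore-forming claudin, was lower where it differed. It is on chromosome 7 from 101232092 to 101238820, minus strand. Parental libraries had 7.86, 6.86 and 7.39 TPM, and the lowest line was isoform 2, with 5.28, 4.26 and 5.06 TPM. Isoform 1 had 5.34, 5.4 and 6.25, isoform 9 6.38, 4.87 and 5.92, isoform 10 5.67, 5.74 and 6.26 and isoform 12 6.24, 5.41 and 5.22 TPM. Those 5 lines lay wholly below the parental range, as did isoforms 3, 4 and 6, while 5, 7, 8 and 11 overlapped it. CLDN15 fell by 0.52 ± 0.11 (SE), adjusted p = 0.000192, in isoform 2, and by 0.33, 0.32, 0.28 and 0.34 in isoforms 1, 9, 10 and 12. With median-of-ratios scaling, the last 4 did not pass, with adjusted p-values of 0.0964, 0.0563, 0.0829 and 0.0513, and isoform 2 still did. The falls in isoforms 9, 10 and 12 were also lost without parental replicate 1 (adjusted p = 0.124, 0.144 and 0.131) or 3 (0.0775, 0.0905 and 0.0859). The same held without isoform 9 replicate 2 (0.203), isoform 10 replicate 1 or 2 (0.114 and 0.107) and isoform 12 replicate 2 or 3 (0.105 and 0.136). In the other 7 lines its fold change was between -0.22 and -0.10 and did not pass.

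CLDN1, a barrier claudin that skin needs to hold water, was the scarcest member. It lies on chromosome 3 from 190305701 to 190322475, minus strand. Parental libraries had 0.56, 0.553 and 0.438 TPM. The line of isoform 10 had 1.64, 1.11 and 1.11 TPM and that of isoform 5 0.975, 0.665 and 0.821 TPM, the 2 lines wholly above the parental range. Lowest was isoform 2, with 0.128, 0.0904 and 0.0593 TPM. Isoforms 1, 3, 7, 8, 9 and 11 were also wholly below the parental range, with means from 0.122 TPM (isoform 7) to 0.247 TPM (isoform 3). Isoforms 4, 6 and 12 overlapped it. In a fit without the filter, which tested 39252 genes, CLDN1 fell in these 7 lines and rose in isoform 10, by 0.58 ± 0.09 (SE), adjusted p = 2.31e-05. The falls ranged from 0.28 in isoform 3 (adjusted p = 0.047) to 0.47 in isoform 2 (adjusted p = 0.000161). The added 1 shrinks these values: mean TPM was 0.48 times the parental mean in isoform 3 and 0.18 times in isoform 2. CLDN1 was only in this fit, so no left-out library, scaling or other pseudocount was tried for it. In the authors' deposited tables the fall in isoform 3 has an adjusted p of 0.0667, and the other falls pass. In isoform 5 the difference was 0.26 and did not pass (adjusted p = 0.103). The share of all genes that passed in this fit was 25.8%, 24% and 9.49% in isoforms 1 to 3, 5.98%, 5.52% and 3.49% in 4 to 6, 16.5%, 13.4% and 8.83% in 7 to 9, and 14.9%, 15.6% and 5.37% in 10 to 12. In isoforms 1, 7, 8 and 11 CLDN2 rose and CLDN1 fell, and in isoform 10 both rose.

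**Figure D3:**
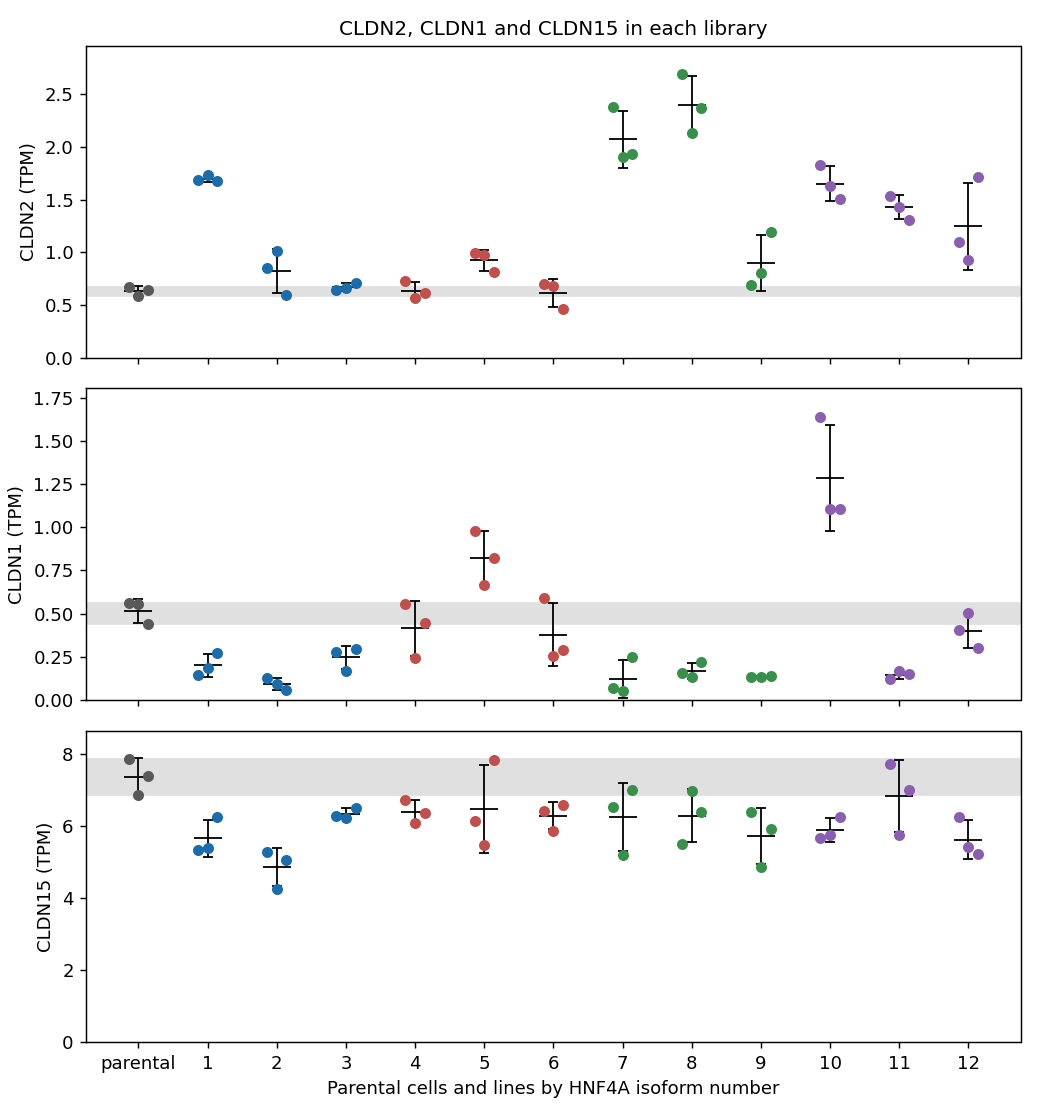
TPM of CLDN2, CLDN1 and CLDN15 (vertical axes, from 0) in each of 39 libraries, with the parental range as a grey band and bars for the mean ± SD of 3; colours mark isoforms 1-3 (blue), 4-6 (red), 7-9 (green) and 10-12 (purple). CLDN2 stands wholly above the band in 8 lines, highest in isoforms 7 and 8, CLDN1 in isoforms 5 and 10, and CLDN15 in no line.

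Occludin, which lends stability to the seal, and CLDN12, a claudin that lacks the usual link to ZO-1, passed the test in no line. OCLN (chromosome 5, 69492292 to 69558104, plus strand) read 13.9, 15.9 and 16.8 TPM in the parental libraries. Its line means lay between 13.2 TPM (isoform 7) and 16.6 TPM (isoform 10), and all 12 lines overlapped the parental libraries. Its fold changes ran from -0.22 to 0.09 with an SE of 0.11, and none of the 12 had even an unadjusted limma p under 0.05, while the authors' deposited tables also list 0 lines at an adjusted p under 0.05. CLDN12 (chromosome 7, 90383721 to 90513402, plus strand) read 23.8, 27.0 and 27.6 TPM in the parental libraries. Its line means ran from 22.0 TPM (isoform 2) to 28.1 TPM (isoform 12). Isoform 2, with 20.8, 22.2 and 23.0 TPM, lay wholly below the parental range and the other 11 overlapped it. That difference was -0.24 ± 0.10 (SE), adjusted p = 0.0541, and it was the 1 of 12 with an unadjusted p under 0.05.

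ZO-1, the scaffold that binds claudin tails, rose in 2 lines by small amounts. TJP1 (chromosome 15, 29699367 to 29968865, minus strand) read 35.7, 38.8 and 38.7 TPM in the parental libraries. Isoform 1 had 42.1, 42.6 and 44.4 TPM and isoform 8 42.9, 40.6 and 44.1 TPM, and both lines lay wholly above the parental range. Isoforms 4 and 6 lay below it, with 32.7, 34.5 and 34.9 and 35.6, 33.3 and 34.3 TPM, and the other 8 overlapped. The log2 fold changes were 0.18 ± 0.06 (SE), adjusted p = 0.012, in isoform 1, and 0.17 ± 0.06 (SE), adjusted p = 0.037, in isoform 8. With median-of-ratios scaling the first was 0.30. The rise in isoform 1 was lost without parental replicate 1 (adjusted p = 0.073) or isoform 1 replicate 3 (0.0514). The rise in isoform 8 was lost without parental replicate 1 (0.169) or isoform 8 replicate 1 (0.093) or 3 (0.137).

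Cingulin, which joins the junction to myosin, marked 2 lines in opposite directions. CGN (chromosome 1, 151510510 to 151538692, plus strand) read 12.6, 12.9 and 14.3 TPM in the parental libraries. It had 18.5, 15.9 and 18.9 TPM in isoform 1, wholly above them, and 8.76, 9.29 and 10.3 TPM in isoform 12, wholly below. CGN rose by 0.39 ± 0.09 (SE), adjusted p = 0.000444, in the first, and fell by 0.45 ± 0.09 (SE), adjusted p = 0.000757, in the second. Isoforms 3, 4 and 5 also lay wholly below the parental range, with 11.6, 11.6 and 12.1, 12.5, 10.4 and 10.6, and 12.4, 11.1 and 11.9 TPM, but did not pass (adjusted p = 0.222, 0.083 and 0.287). The remaining 7 lines overlapped the parental libraries, with means from 11.3 TPM (isoform 10) to 13.5 TPM (isoform 7).

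**Figure D4:**
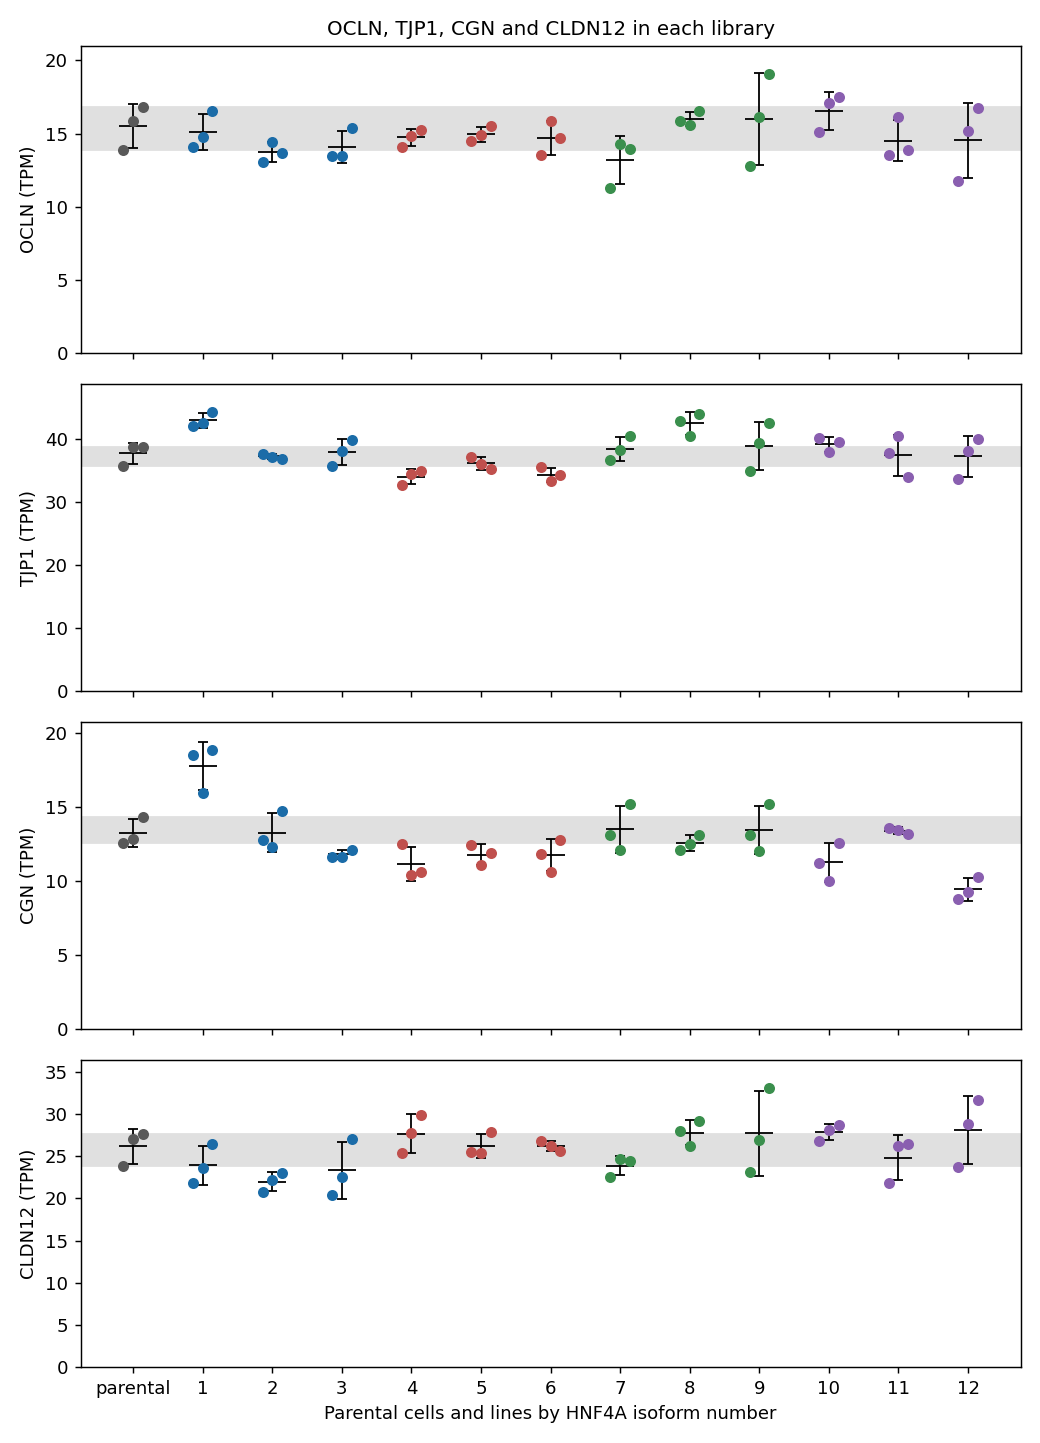
TPM of OCLN, TJP1, CGN and CLDN12 (vertical axes, from 0) in each of 39 libraries, drawn with the parental range as a grey band and the mean ± SD of 3; colours mark isoforms 1-3 (blue), 4-6 (red), 7-9 (green) and 10-12 (purple). Every line overlaps the band for OCLN, while CGN is wholly above it in isoform 1 and wholly below it in isoform 12.

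By line, members passed most often in isoform 1 and not at all in isoforms 4 and 5. In isoform 1, 5 of the 9 tested members rose (CLDN2, CLDN4, CLDN7, TJP1 and CGN) and CLDN15 fell, while 19.8% of all tested genes rose and 38.7% fell. In isoform 2, 2 rose and 2 fell, beside 19.7% and 35.6% of all genes. Isoform 3 had 2 rises and 1 fall (11.2% and 14.7% of all genes). None of the 9 passed in isoform 4 (limma, 4 at an unadjusted p under 0.05), beside 6.26% higher and 10.1% lower over all genes. None passed in isoform 5 either (3 at an unadjusted p under 0.05), where 9.57% of all tested genes rose and 5.22% fell. The authors' deposited tables list CLDN4 and CLDN7 at an adjusted p under 0.05 for isoform 4, and CLDN3, CLDN4 and CGN for isoform 5. In isoform 6 there were 2 falls and no rise, beside 4.13% of all genes lower and 5.94% higher.

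Isoforms 7, 8 and 11 had 4 rises and no fall each. 13.4% of all tested genes rose and 26.2% fell in isoform 7, 16.9% and 17.5% in isoform 8, and 14.5% and 24% in isoform 11. Isoform 9 had 2 rises and 1 fall (10.9% and 11.8% of all genes), isoform 10 had 2 rises and 1 fall (17% and 20.4%), and isoform 12 had 1 rise and 3 falls (7.92% and 6.65%). CLDN2, which reached the filter through lines where it was high, is among the rises of isoforms 7, 8, 10 and 11. It is the 1 rise of isoform 12. Over all genes, the share called at a log2 change of at least 1 was 4.52%, 3.73% and 0.807% in isoforms 1 to 3, 0.54%, 0.293% and 0.247% in 4 to 6, 2.08%, 1.41% and 0.827% in 7 to 9, and 1.44%, 1.7% and 0.573% in 10 to 12. The median fold change of the tested members was highest in isoform 1 (0.18) and isoform 8 (0.17), beside medians of all genes of -0.107 and -0.01. It was lowest in isoforms 3 and 6 (-0.13 in each), beside -0.043 and -0.006. The member medians include CLDN2. Median-of-ratios scaling brought the median of all genes in isoform 1 to -0.007. Of all tested genes, 29.9% then rose and 28.1% fell in isoform 1, 28.3% and 26.8% in isoform 2, 16.3% and 12.3% in isoform 3, 11.8% and 7.61% in isoform 4, 21.6% and 20% in isoform 7, and 22% and 19.3% in isoform 11. Among the members it changed the sign of 6 of the 108 values, none of which had passed.

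Counted by libraries that did not overlap the parental ones, all 10 members could be read. Of the 10, 5 lay wholly above and 2 wholly below in isoform 1, 2 and 4 in isoforms 2 and 3 alike, 2 and 3 in isoforms 4 and 5, and 0 and 4 in isoform 6. The counts were 4 above and 1 below in isoforms 7, 8 and 11, 2 and 2 in isoform 9, 3 and 1 in isoform 10, and 1 and 3 in isoform 12. The shares over all genes that follow are of the 15003 past the filter, which CLDN1 is not among. Those shares were 22.1% above and 42.8% below in isoform 1, 23.5% above and 41% below in isoform 2, and 15.2% above and 24.3% below in isoform 3. They were 13.2% above and 22% below in isoform 4, 22.3% above and 15.7% below in isoform 5, and 16.7% above and 15.9% below in isoform 6. The next lines had 17.2% above and 31.7% below in isoform 7, 23.5% above and 25% below in isoform 8, and 15.4% above and 17.1% below in isoform 9. The last had 23.5% above and 28.6% below in isoform 10, 19.4% above and 31.4% below in isoform 11, and 15.7% above and 17.6% below in isoform 12. Ordered by mean TPM, most neighbouring groups were not separated: of 12 neighbouring pairs, 4 had libraries apart for CLDN4, 3 for CLDN7, 2 each for CLDN1, CLDN3 and CGN, 1 each for CLDN2 and TJP1, and none for CLDN12, CLDN15 and OCLN.

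Set against the mean of the other 11 lines, which share the GFP fusion and selection, members differed in 44 of 108 tests (21 higher, 23 lower), none by a log2 difference of 1 or more. The share of all genes with a difference of that size is not given, so the lack of one among the members has no background. CLDN2 gave 10 of the 44 (4 higher, 6 lower). CLDN7 was higher in isoforms 1, 2, 7, 9 and 11 and lower in 4, 5, 6 and 12, from 0.43 ± 0.04 (SE), adjusted p = 2.52e-10, in isoform 1, to -0.47 ± 0.04 (SE), adjusted p = 7.27e-11, in isoform 6. CLDN4 was higher in isoforms 1, 2, 7, 8 and 11 and lower in 5, 6, 10 and 12, from 0.54 in isoform 1 to -0.47 in isoform 6. CLDN3 was higher in 7, 8, 9 and 11 and lower in 2, 3, 6 and 12. Its extremes were 0.55 ± 0.06 (SE), adjusted p = 3.95e-09, in isoform 7, and -0.62 ± 0.06 (SE), adjusted p = 1.8e-10, in isoform 2. CLDN2 was higher in isoforms 1, 7, 8 and 10 and lower in 2, 3, 4, 5, 6 and 9. Its highest difference was 0.69 ± 0.08 (SE), adjusted p = 1.47e-07, in isoform 8. TJP1 was higher in isoforms 1 and 8 and lower in 4 and 6, CGN higher in 1 (0.52) and lower in 12 (-0.40), and CLDN12 and CLDN15 lower in isoform 2. OCLN passed in no line. Members that passed numbered 5, 6 and 2 of 9 in isoforms 1 to 3, 3, 3 and 5 in 4 to 6, 4, 4 and 3 in 7 to 9, and 2, 3 and 4 in 10 to 12. Of all genes, 55.3%, 48.1%, 7.91%, 38.4%, 44.4%, 37.3%, 30.6%, 28.5%, 26.2%, 14.1%, 21.5% and 20.8% passed in isoforms 1 to 12 in order.

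HNF4A isoforms share their DNA-binding part and differ at both ends, and by the standard numbering (not given in the labels) isoforms 1-3, 4-6, 7-9 and 10-12 share an N-terminal form. With the 12 line means as the units, the lines of isoforms 4-6 had less CLDN4 and CLDN7 than those of isoforms 1-3. The differences were -0.54 ± 0.11 (SE), adjusted p = 0.00728, for CLDN4 and -0.51 ± 0.11 (SE), adjusted p = 0.00795, for CLDN7, and 34.6% of all genes passed in that contrast. Between isoforms 7-9 and 1-3, CLDN3 was higher by 0.60 ± 0.14 (SE), adjusted p = 0.0289, where 11.6% of all genes passed. That difference did not pass when the line of isoform 1, 2, 7, 8 or 9 was left out, with values of 0.72, 0.41, 0.58, 0.63 and 0.60 and adjusted p-values of 0.0539, 0.0962, 0.111, 0.0916 and 0.0811. CLDN4 and CLDN7 differed by -0.07 ± 0.11 and -0.01 ± 0.11 (SE) between these classes and did not pass. No member passed between isoforms 10-12 and 7-9 (limma, 0% of all genes), where CLDN4 alone had an unadjusted p under 0.05 (-0.28 ± 0.11, SE), as had 7.55% of all genes. None passed between isoforms 2, 5, 8 and 11 and isoforms 1, 4, 7 and 10, which differ at the C-terminal end (0% of all genes), and 0 had an unadjusted p under 0.05, against 3.03% of all genes. Isoforms 3, 6, 9 and 12, which share another C-terminal form, had lower values of CLDN2, CLDN4 and CLDN7 than the others at an unadjusted p only: -0.38 ± 0.13, -0.26 ± 0.08 and -0.19 ± 0.08 (SE), adjusted p = 0.191, 0.166 and 0.258. In that contrast 18.2% of all genes had an unadjusted p under 0.05 and 0.0133% passed.

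Other tight junction genes were read from lists drawn up with earlier results of these data known. Of 17 further claudins found, 2 passed the filter. CLDN23 rose in 7 lines and fell in 1: the parental mean was 3.9 TPM ± 0.296 (SD, n = 3), that of isoform 1 12.3 TPM ± 1.12 (SD, n = 3) and that of isoform 4 2.22 TPM ± 0.267 (SD, n = 3). CLDN6, a claudin of embryonic epithelium, fell in 6 lines, with a parental mean of 31.0 TPM ± 0.873 (SD, n = 3). In isoform 4 it had 16.6 TPM ± 1.74 (SD, n = 3), lower by 0.87 ± 0.10 (SE). Of 12 other membrane proteins tested, 5 rose and 3 fell in isoform 1 (7 and 2 with median-of-ratios scaling), and 0 rose and 2 fell in isoform 6. Of all tested genes, 19.8% rose and 38.7% fell in isoform 1 (29.9% and 28.1% with that scaling), and 5.94% and 4.13% in isoform 6. CRB3, a polarity protein of the apical membrane, rose in 10 lines and was called in isoform 1 (1.15 ± 0.06, SE), and MARVELD3, a relative of occludin, rose in 8 and was called there too (1.06 ± 0.07, SE). LSR, a protein of tricellular corners, fell in 11 lines by at most 0.29.

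Among 23 plaque and polarity genes, 8 rose and 9 fell in isoform 1 (9 and 7 with median-of-ratios scaling), and 2 rose and 2 fell in isoform 6, beside the same shares of all genes (19.8% and 38.7%, and 5.94% and 4.13%). The list's median fold change lay between -0.05 (isoform 7) and 0.06 (isoform 8) in all lines, beside medians of all genes of -0.063 and -0.01. TJP3 (ZO-3) rose in 11 lines and was called in isoforms 1 and 2, with a parental mean of 14.1 TPM ± 1.12 (SD, n = 3). In isoform 1 it had 52.2 TPM ± 6.35 (SD, n = 3), higher by 1.81 ± 0.13 (SE), adjusted p = 5.65e-13. TJP3 thus passed in 11 lines and TJP1 in 2, a difference between the genes that was not itself tested. PARD6B, a subunit of the apical polarity complex, rose in 8 lines and fell in isoforms 4, 5 and 6, where it had 8.99, 8.65 and 7.4 TPM against 12.7 TPM in the parental cells. MAGI1 rose in 8 lines, by up to 0.86 in isoform 11, and AMOTL2, an angiomotin relative, fell in 10, by up to 0.84 in isoform 1.

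**Figure D5:**
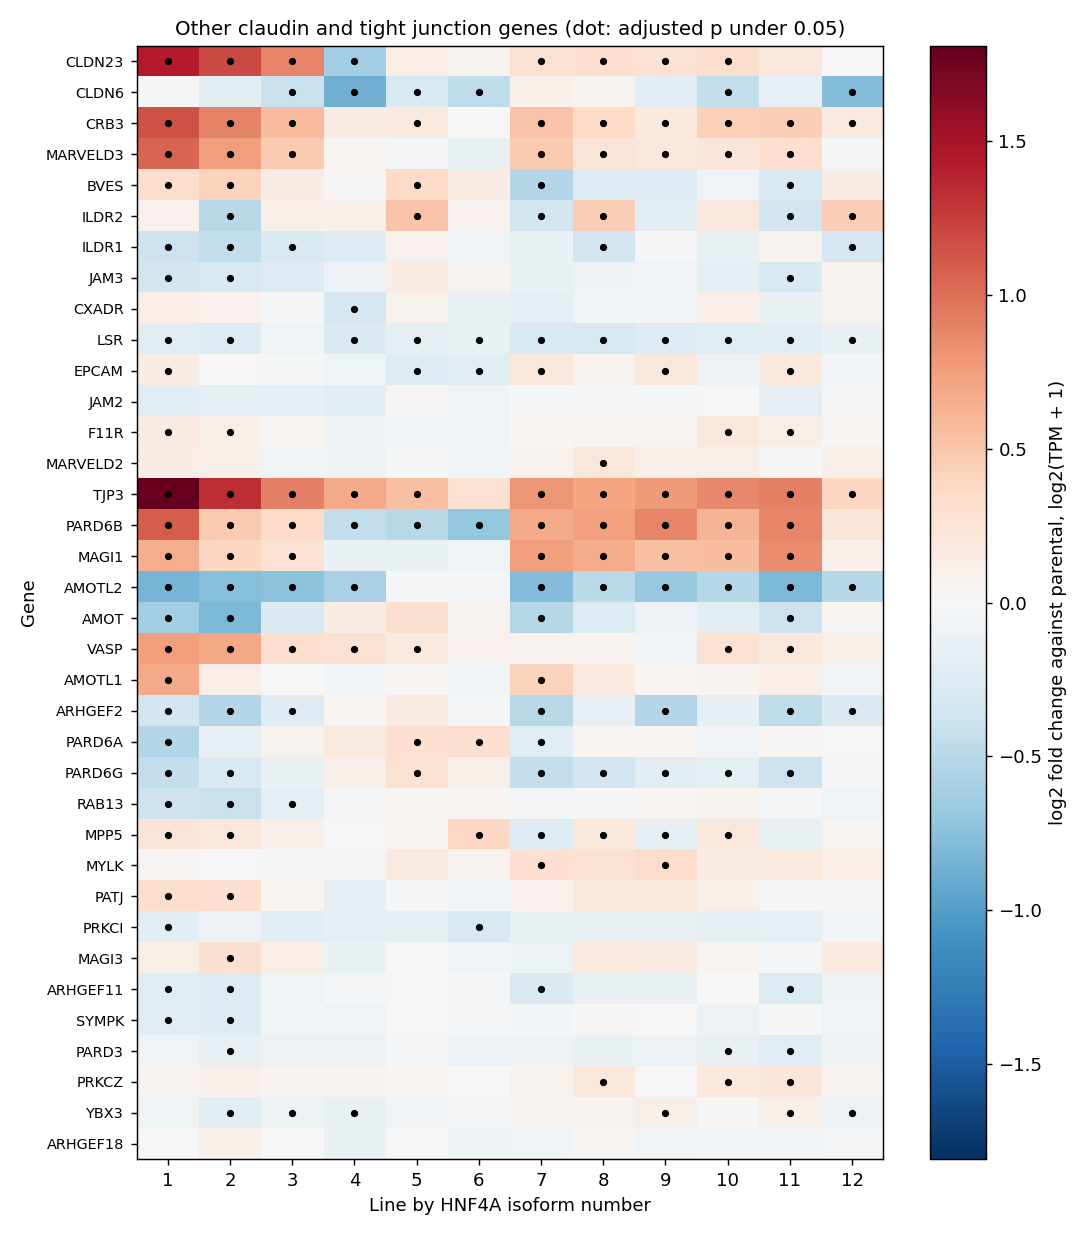
Log2 fold change against the parental cells on the log2(TPM + 1) scale (colour, red higher and blue lower) for further claudins, tight junction membrane proteins and plaque or polarity genes (rows) in the 12 lines (columns, by isoform number); dots mark an adjusted p under 0.05. TJP3 and CRB3 are red with dots in most columns, and PARD6B is blue with dots in the columns of isoforms 4, 5 and 6.

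Genes of the neighbouring junctions are counted here against 19.8% of all genes that rose and 38.7% that fell in isoform 1, and 5.94% and 4.13% in isoform 6. Of 12 adherens junction genes, 6 rose and 2 fell in isoform 1, and 0 rose and 2 fell in isoform 6. LIMA1, which links that junction to actin, rose in 8 lines and was called in 2 (up to 1.20 ± 0.08, SE, in isoform 2), and NECTIN1, an adhesion receptor, fell in 10 and was called in 2 (by 1.03 ± 0.08, SE, in isoform 2). JUP (plakoglobin) rose in 11 lines, and CDH1 (E-cadherin) rose in 4, by up to 0.89 in isoform 1, and fell in isoform 6, by 0.53. Of 9 desmosome genes, 7 rose and 2 fell in isoform 1, with a list median of 0.43, and 0 rose and 1 fell in isoform 6, with a list median of 0.01. PKP2 (plakophilin 2) rose in 11 lines and was called in 3, and DSC2 (desmocollin 2) was called in isoform 1 (1.38 ± 0.12, SE). Of 11 transcription factors linked to epithelial junction genes, 6 rose and 2 fell in isoform 1. KLF4 was called there (1.04 ± 0.07, SE), CDX2 fell in 7 lines and GRHL2 fell in 6.

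Across the 13 group means on the log2(TPM + 1) scale, CLDN4 and CLDN7 followed each other most closely of all member pairs (r = 0.902). These correlations are descriptions: both genes of a pair come from the same libraries and share their depth, and the parental mean is 1 of the points. CLDN2 went with TJP1 (r = 0.735) and CLDN3 (r = 0.638), and CLDN4 with CGN (r = 0.734). CLDN1 went against CLDN4 (r = -0.655). Over the 12 line means, r with the HNF4A level ran from -0.449 for CLDN7 to 0.416 for CLDN12. Outside the members, the tested genes most like CLDN7 were FHL2 (r = 0.966) and UNC93B1 (r = 0.965), and those most like CLDN4 were BCAR1 (r = 0.953) and BAIAP2L1 (r = 0.949). The nearest to CLDN2 were NSUN2 (r = 0.925) and GRB10 (r = 0.92), and to CLDN3 CATSPERZ (r = 0.93) and ITPR3 (r = 0.926). CLDN1 was nearest to DAB2 (r = 0.959), CLDN12 to CHM (r = 0.926), CLDN15 to CPT1B (r = 0.91), TJP1 to POLR3A (r = 0.935), CGN to GALM (r = 0.887) and OCLN to LOC105376136 (r = 0.866).

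The authors' deposited table for each line gives its own fold change and adjusted p-value. Of the 37 member values that passed here, 35 pass there in the same direction and none in the other. A further 9 pass in the authors' deposited tables and not here, 44 in all over the same 108. For CLDN7 in isoform 1 the authors' deposited table has a log2 fold change of 0.874, for CLDN4 0.873 and for CLDN2 1.45. For CLDN2 in isoforms 7 and 8 the authors' deposited tables have 1.5 and 1.53, and for CLDN1 in isoforms 2 and 10 they have -1.52 and 0.95. TJP1 in isoform 1 stands at 0.332 in the authors' deposited table.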

How the data were processed

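The authors deposited 13 tables, 1 per group, with TPM per gene and library, and the columns named in the labels were assigned to libraries through those names. For each line the table adds the authors' mean normalised counts (a signal), log2 fold change with its standard error, test statistic (a score), p-value and adjusted p-value, per the file headers. Trimmomatic 0.36, FastQC 0.11.5, kallisto 0.44.0, DESeq2 1.22.2 and GRCh38.p12 are listed in the submitters' processing notes, without roles. Rows of HNF4A isoforms were summed. TPM is not a count, so log2(TPM + 1) was fitted with limma 3.58.1 in R 4.3.3 (trend, 26 residual degrees of freedom, all 39 libraries) over the 15003 genes whose mean reached 1 TPM, and p-values were adjusted by Benjamini-Hochberg within each comparison. Lines were compared with the parental cells, with the other 11 lines, and by isoform class over 12 line means. The fit was tested on simulated data. Alternatives were the pseudocount, the filter, scaling, the minimum fold change, the libraries fitted, a replicate block and each library left out. Depth per library is unknown: the authors' mean normalised counts sum to between 50609338 and 56136330 per table. Gene positions come from GENCODE on GRCh38. The named genes were all members, HNF4A, up to 10 genes per list in order of lines called and then of fold change, any further claudin past the filter, and the genes most like each member. Some genes of these lists are not reported here. The members and lists were chosen with earlier results of these data known.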

Additional observations from a re-analysis of the deposited data

Results flagged for a closer look

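Classes of isoforms differed in 3 members by the test on line means. CLDN4 and CLDN7 were lower in isoforms 4-6 than in 1-3, by log2 differences of -0.54 and -0.51 (limma adjusted p = 0.00728 and 0.00795), and CLDN3 was higher in isoforms 7-9 than in 1-3 by 0.60 (adjusted p = 0.0289). Of all genes, 34.6% passed in the first contrast and 11.6% in the second. The CLDN3 difference did not pass without the line of isoform 1, 2, 7, 8 or 9 (adjusted p = 0.0539, 0.0962, 0.111, 0.0916 and 0.0811). Against the parental libraries, 6 members lay wholly above in some lines and wholly below in others. CLDN1 did so in 2 lines above and 7 below, CLDN3 in 2 and 5, CLDN4 in 7 and 1, CLDN7 in 9 and 1, TJP1 in 2 and 2, and CGN in 1 and 4. The lines wholly below did not pass the limma test for CLDN4 (isoform 5, adjusted p = 0.0867) or CLDN7 (isoform 6, adjusted p = 0.294). Nor did they for TJP1 (isoforms 4 and 6, adjusted p = 0.115 and 0.203). Among tested genes, 5 of the 9 members lay wholly above in some lines and wholly below in others (CLDN1 is not among the 9), beside 30.8% of all 15003. These opposite directions between lines were not tested as differences.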

How the results depend on the processing

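Of 40 member fold changes and class differences that passed, 25 passed under every alternative run, 15 were lost under at least 1 (those lost to a left-out library or to scaling are named beside the result) and 0 reversed. In the fit without the filter, 6 of these fold changes did not pass (limma). They were CLDN4 in isoform 6, TJP1 in isoform 8 and CLDN3 in isoform 11 (adjusted p = 0.102, 0.0767 and 0.0663). The others were CLDN15 in isoforms 9, 10 and 12 (adjusted p = 0.0684, 0.0895 and 0.0713). CLDN1, tested only without the filter, is not among the 40. Members called per line at a log2 change of at least 1 were 0, except 1 in isoform 8. With a minimum of 0.5 they were 3, 2, 3, 1, 1 and 2 in isoforms 1, 2, 7, 9, 10 and 11. Shares of all genes at that minimum, with a pseudocount of 0.1 or with the replicate block are not given. The member counts at those settings thus have no background beside them and describe the processing only. With no minimum they were 6, 4, 3, 2, 4, 4, 3, 3, 4 and 4 in isoforms 1, 2, 3, 6, 7, 8, 9, 10, 11 and 12, and between classes 2 for isoforms 4-6 and 1 for isoforms 7-9, each against 1-3. A pseudocount of 0.1 gave 1 called member in isoforms 1, 7, 10 and 11 against the parental cells, and 1 in isoform 8 against the other lines. With a filter of 5 TPM, which drops CLDN2, isoform 8 had 0. Members with an adjusted p under 0.05 went from 0 to 1 in isoform 4 and from 0 to 2 in isoform 5 with median-of-ratios scaling, and from 3 to 5 in isoform 5 against the other lines. In isoform 5 the count was 1 with the 5 TPM filter and 1 with only the parental libraries and those of the line, a fit that gave 1 in isoform 6 and 1 in isoform 9. In isoform 6 it was 1 without a filter and 1 in a fit of the 33 libraries with a replicate number, which was chosen after seeing the data. With 1 library left out in turn, the counts against the parental cells ranged from 0 to 2 in isoform 4, 0 to 1 in isoform 5, 0 to 2 in isoform 6, 1 to 3 in isoform 9 and 2 to 4 in isoform 12, and the called count of isoform 8 from 0 to 1. Against the other lines they ranged from 2 to 4 in isoform 8 and 1 to 2 in isoform 10, and between isoforms 7-9 and 1-3 from 0 to 1 with a line left out. The cause of these moves was not tested.

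Replicate numbers were not taken to pair the samples, since the correlation of same-numbered libraries was not over 0.1 throughout: over 30 pairs of a line and the parental cells the median correlation was 0.045 (range -0.047 to 0.187, 4 over 0.1), and 20 of 30 correlated best with their own number, a hint of shared deviation from the data and not from the design. With the replicate number as a block, over 33 libraries because isoforms 4 and 5 carry no number, all 37 passing values still passed. In each of isoforms 2, 7, 8 and 10, 1 more member passed, with 5, 5, 5 and 4 members (4, 4, 4 and 3 in the main fit of 39 libraries). These fits differ in both the block and the libraries. With the same 33 libraries and no block, TJP1 in isoform 8 and CLDN4 in isoform 6 did not pass (limma adjusted p = 0.0509 and 0.0747). Isoform 1 had 6 members in the block fit and in the main fit. TPM gives no depth, so the counting error per library of CLDN1 and CLDN2, the members near or below 1 TPM, is unknown. The authors' mean normalised counts, pooled over the libraries compared, were 25.9 (isoform 7) to 79.5 (isoform 10) for CLDN1. For CLDN2 they were 55.4 (isoform 6) to 137 (isoform 8).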
